A study of Mus musculus with 14 samples.

Results

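The 9 genes described here encode transcription factors that granulosa cells (GCs) are known by: Foxl2, Runx1, Wt1, Gata4, Gata6, the nuclear receptors Nr5a1, Nr5a2 and Esr2, and Foxo1. They were chosen by name and were found in the count table through their Ensembl identifiers, as 9 of 55414 genes. All 9 passed the filter on low counts in every fit. RNA-seq had been performed on GCs released by puncture from antral follicles, about 50 cells pooled per library, and the 14 libraries fell into 4 groups. There were 4 libraries of db/db mice, homozygous mutants of strain B6.BKS(D)-Lepr db/J that lack the long form of the leptin receptor, and 4 of their lean controls (CT db). The other model gave 3 libraries of ob/ob mice, homozygous mutants of strain B6.Cg-Lep ob/J that lack leptin, and 3 of their lean controls (CT ob). All groups were females on a chow diet that were kept until 12 weeks of age, and the controls were lean littermates. Both mutations are carried in every cell from birth, so none of the groups isolates leptin signalling in GCs. Controls are wild type by their labels (db/db +/+ and ob/ob +/+) but carry column names that look heterozygous, and which holds was not settled. Nothing states that each library came from a different animal, so p-values measure the spread between these libraries only.

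GCs surround the oocyte, make oestradiol and inhibins, and keep their identity through a small set of transcription factors. FOXL2 is the forkhead factor that keeps ovarian cells from turning into testicular Sertoli cells, a role in which RUNX1 and the oestrogen receptors also take part. NR5A1 (SF-1) and NR5A2 (LRH-1) read the same DNA word and switch on steroidogenic genes. GATA4 and GATA6 are partner zinc finger factors of the same promoters, WT1 is a zinc finger factor of the early gonad and of small follicles, and FOXO1 is abundant in GCs of growing follicles and is held out of the nucleus by FSH, insulin and IGF1 signals.

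In GRCm39, Foxl2 (ENSMUSG00000050397) is at chr9:98837341-98840596 on the plus strand and Runx1 (ENSMUSG00000022952) at chr16:92398354-92623037 on the minus strand. Wt1 (ENSMUSG00000016458) is at chr2:104956625-105003961 on the plus strand, on the chromosome that also holds Nr5a1 (ENSMUSG00000026751) at chr2:38581468-38604642 on the minus strand. Gata4 (ENSMUSG00000021944) is at chr14:63436362-63509141 on the minus strand. Nr5a2 (ENSMUSG00000026398) is at chr1:136770303-136888186 and Esr2 (ENSMUSG00000021055) at chr12:76167193-76224033, both on the minus strand, and Foxo1 (ENSMUSG00000044167) is at chr3:52175757-52260642 on the plus strand.

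The 250 bases before the canonical transcript start of each gene were searched, on both strands, for 1 word of each family. The word of the NR5A receptors, AAGGTCA, was present in 3.93% of the 21770 genes searched in the same way. For the GATA factors the word was AGATAA, present in 9.6% of those genes. A forkhead word, GTAAACA, was present in 2.72%. The fourth, TGTGGT for RUNX factors, was present in 13%. Of the 9 genes, 2 held a GATA word (Wt1, with 2 of them, and Gata4) and 3 held a RUNX word (Esr2, Gata4 and Runx1 itself, 233 bases before its start). The sequences of Wt1, which showed the largest difference, and Esr2, which had the smallest adjusted p, are printed with every match in capitals. They are Wt1 (chr2:104956375-104956624, plus strand, GATA words starting 237 and 130 bases before the start, the former on the opposite strand) and Esr2 (chr12:76224034-76224283, minus strand, a RUNX word at 78), both in GRCm39. No 2 matches share a base, and a match is a run of letters and not a measured binding site.
Wt1: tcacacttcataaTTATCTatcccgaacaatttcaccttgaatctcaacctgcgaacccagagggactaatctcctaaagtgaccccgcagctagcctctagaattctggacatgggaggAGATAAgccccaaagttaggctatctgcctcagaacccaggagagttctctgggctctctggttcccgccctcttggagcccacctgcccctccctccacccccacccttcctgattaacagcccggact
Esr2: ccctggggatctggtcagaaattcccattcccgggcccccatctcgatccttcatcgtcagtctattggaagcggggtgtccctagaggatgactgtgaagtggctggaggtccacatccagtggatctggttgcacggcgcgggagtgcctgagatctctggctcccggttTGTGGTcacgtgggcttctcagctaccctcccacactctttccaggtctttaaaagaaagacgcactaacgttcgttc

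Words of the families also stand in some promoters of genes that GCs are known for, which are used below as a readout. Other such promoters, among them those of Fshr, Inha, Inhbb and Fst, held 0 of the words. Cyp19a1 (aromatase, chr9:54100807-54101056, minus strand) has an NR5A word at 89 bases before its start and a RUNX word on the opposite strand at 64. Inhba (the inhibin beta A subunit, chr13:16188733-16188982, plus strand) has a RUNX word at 209 and a GATA word at 103. Both are shown because their levels were set beside those of the factors.
Cyp19a1: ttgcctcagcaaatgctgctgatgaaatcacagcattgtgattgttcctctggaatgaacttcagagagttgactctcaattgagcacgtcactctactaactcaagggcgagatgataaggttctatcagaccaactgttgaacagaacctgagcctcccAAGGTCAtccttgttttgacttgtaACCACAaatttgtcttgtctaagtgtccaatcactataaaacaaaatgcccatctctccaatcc
Inhba: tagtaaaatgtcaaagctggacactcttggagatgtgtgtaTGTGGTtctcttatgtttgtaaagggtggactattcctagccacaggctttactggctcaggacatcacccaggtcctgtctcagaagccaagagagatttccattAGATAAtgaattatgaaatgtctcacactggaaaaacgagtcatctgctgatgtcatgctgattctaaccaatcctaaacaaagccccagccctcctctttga

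Values are CPM, the counts scaled to a fixed library total with TMM factors, and they are listed in the order of the library numbers in the table: 37, 51, 69 and 75 for CT db, 24, 53, 68 and 81 for db/db, 60, 65 and 68 for CT ob, and 41, 50 and 106 for ob/ob. The totals ran from 2204686 counts in db/db library 53 to 8367593 in ob/ob library 50, and 3 counts, taken as the limit of detection, were worth 0.369 to 1.30 CPM. The 9 genes had 25 to 8555 counts in a library, and the exact (Clopper-Pearson) 95% binomial interval extended 2.12% to 41.5% of the value to either side on average. These intervals cover counting error only, since the protocol has no molecular identifiers. The summed CPM of 10 GC markers lay between 5780.2 and 16126 in every library. Much of this sum was Inha (3258 to 8007 CPM), and single markers differed widely, down to Cyp19a1 at 6.56 to 106 CPM. Markers of other ovarian cells were not absent: db/db library 24 had the highest sum of 10 theca and stroma markers (365 CPM, against 40.8 to 162 in all others) and of 7 surface epithelium markers (80.1 CPM, against 30.7 to 65.5), and CT ob library 65 had the highest sums of 6 endothelial (36.7 CPM) and 5 luteal markers (351 CPM). Cyp17a1 alone held 256 of the 365 CPM in db/db library 24. Of the other theca and stroma markers, Insl3 and Dcn were also highest there. Tcf21, Col1a1, Col1a2, Lum and Acta2 were highest in CT ob library 65, Nr2f2 in db/db library 53 and Pdgfra in CT ob library 60. Without db/db library 24 and CT ob library 65, 0 of the 9 genes were called in each of the comparisons below. CT ob library 60, which was kept in that fit, had the highest sum of 10 oocyte markers (1084 CPM). Without library 60 alone 0 of the 9 genes were called in ob/ob against CT ob. In pooled cells, fewer cells of a type and less RNA per cell cannot be told apart.

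Per kilobase of merged exons, Esr2 and Foxo1 stood far above the other genes, and the order below them was shallow. Mean levels over the 14 libraries were 118.9 ± 30.1 CPM per kb (SD, n = 14) for Esr2 and 107 ± 28.1 for Foxo1, which placed them at the 98.6th and 98.3rd percentiles of the 12586 genes tested. Nr5a2 (32.1 ± 12.7), Gata4 (30.6 ± 8.95) and Foxl2 (26.0 ± 7.13) followed, then Nr5a1 (13.4 ± 3.84), Wt1 (13.4 ± 12.3), Runx1 (9.42 ± 3.78) and Gata6 (7.35 ± 1.5). Even Gata6, the lowest, was at the 63.8th percentile. Foxo1 was above Nr5a2 in 14 of 14 libraries and Foxl2 above Nr5a1 in 14 of 14. Among the other neighbours the order was not stable: Esr2 was above Foxo1 in 10 of 14 libraries, Nr5a2 above Gata4 in 7, Gata4 above Foxl2 in 11, Nr5a1 above Wt1 in 7, Wt1 above Runx1 in 7 and Runx1 above Gata6 in 8, with mean differences smaller than the spread between libraries. With the length of the canonical transcript in place of merged exons, Nr5a1 (27.9 CPM per kb) moved just above Foxl2 (26.0) and the other places stayed the same, although the levels of Nr5a2 (53.7), Gata4 (41.0), Wt1 (25.7), Runx1 (20.4) and Gata6 (14.7) were also higher on that scale.

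**Figure D1:**
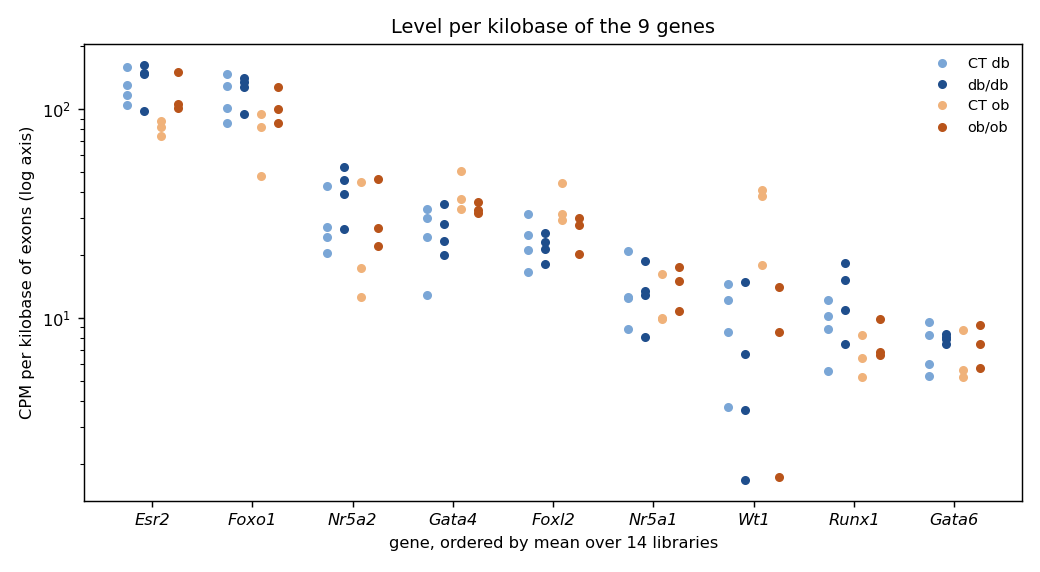
CPM per kilobase of merged exons on a log axis for the 9 genes, ordered from left to right by their mean over 14 libraries. Each point is a library, coloured by group. Esr2 and Foxo1 lie above the rest, and Wt1 spans the widest range, from 1.67 to 41.1 CPM per kb.

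The spread between libraries differed between the genes. Wt1 ran from 10.8 to 265 CPM, a 24.6-fold range over all 14 libraries, whereas Gata6 (48.1 to 87.6 CPM) covered 1.82-fold and Esr2 (250.3 to 548 CPM) 2.19-fold. The biological coefficient of variation that edgeR estimated for Wt1 was 0.530 for the db model and 0.532 for the ob model, beside trend values of 0.202 and 0.247 for genes of that abundance. Nr5a2 came next in the ob model, with 0.415 against a trend of 0.254. In the ob model the estimates for Foxl2, Esr2, Gata4, Gata6 and Runx1 lay below their trend values.

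**Figure D2:**
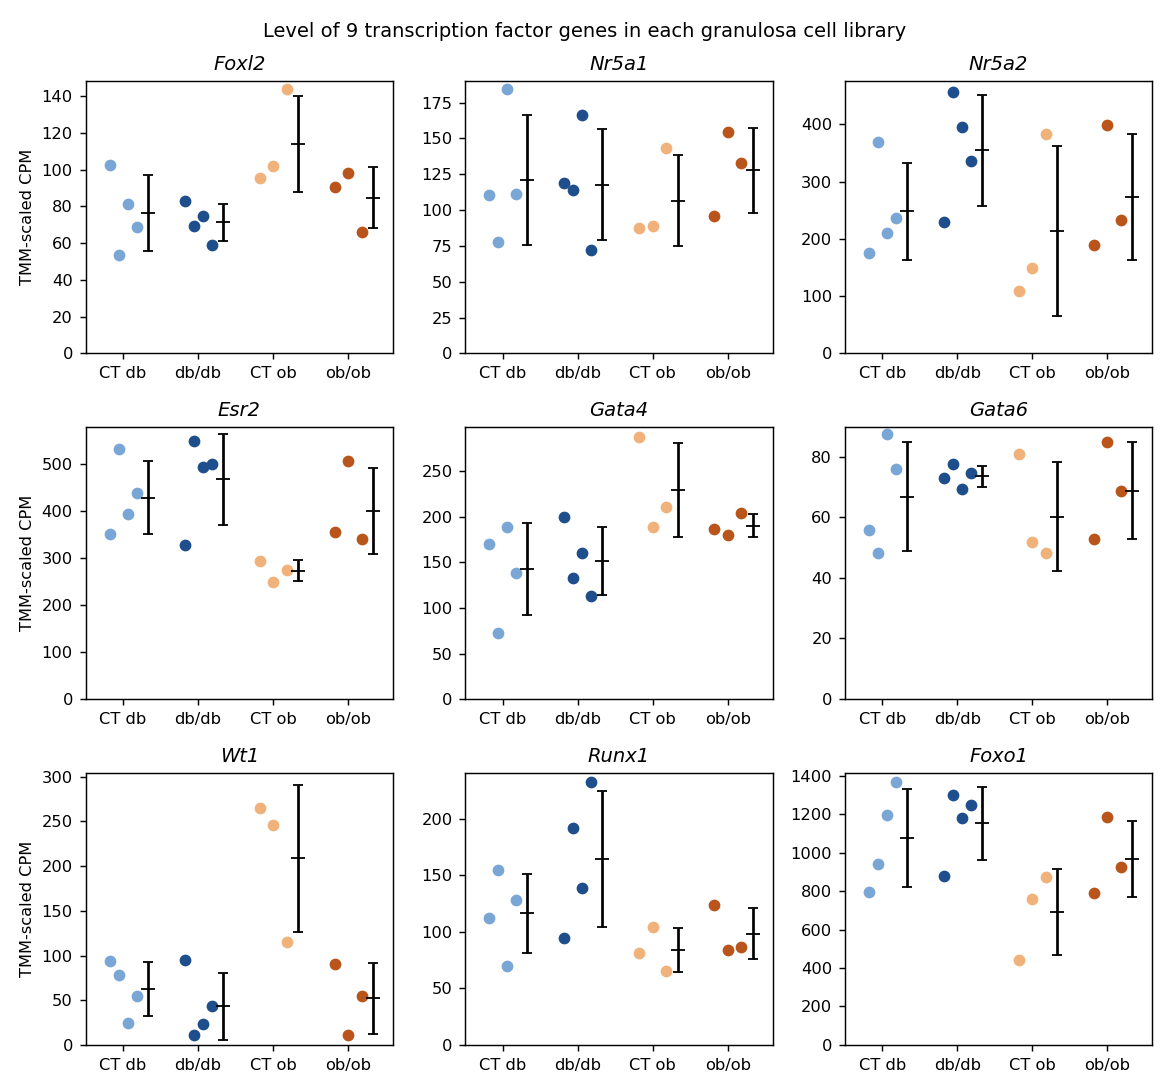
TMM-scaled CPM of each gene in every library of the 4 groups, each panel with its own axis from 0. Points are libraries and bars give the mean and SD of the group. The groups overlap in most panels, and the CT ob libraries of Wt1 (115 to 265 CPM) lie above all the others.

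None of the 9 genes was called, by edgeR's quasi-likelihood test at an adjusted p (Benjamini-Hochberg) of at most 0.05, in any of the 5 comparisons made. In db/db against CT db this stood beside 0.00884% of all genes called, and 0 of the 9 genes had an unadjusted p under 0.05, against 7.59% of all genes. Without db/db library 24, 3 of the 9 (Nr5a2, Runx1 and Wt1) had one. The share of all genes in that fit is not given here, and the 7.59% is no background for this count. In ob/ob against CT ob 0% of all genes were called by edgeR, and 2 of the 9 genes (Wt1 and Esr2) had an unadjusted p under 0.05, against 8.16% of all genes. DESeq2 called 0 of the 9 genes in either model, and 44 and 86 genes in all. In CT ob against CT db 6.63% of all genes were called by edgeR and 5 of the 9 genes had an unadjusted p under 0.05, against 26.9% of all genes. DESeq2 called 1 of the 9 genes there, Esr2, against 12.4% of all genes. That edgeR count was 834 genes with the spread estimated over all 14 libraries, and 3 genes, with 0 of the 9, in a fit of the control libraries alone. In ob/ob against db/db 0.0159% of all genes were called and 1 of the 9 genes (Runx1) had an unadjusted p under 0.05, against 8.19%. The interaction, the difference between the mutant effects of the models, called 0% of all genes, with 0 of the 9 genes against 8.11% of all genes at an unadjusted p under 0.05. DESeq2 called 72 genes in each of these last comparisons and 0 of the 9.

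Groups that do not overlap in CPM were counted as a further description. In db/db against CT db all 9 genes overlapped, beside 4.14% of all genes without overlap. In ob/ob against CT ob 2 of 9 (Wt1 and Esr2) did not overlap, beside 15.8% of all genes, and in CT ob against CT db 3 of 9 (Wt1, Esr2 and Gata4), beside 21.2%. All 9 overlapped in ob/ob against db/db, where 9.91% of all genes did not. The median log2 fold change of the 9 genes was 0.09 within the db groups and 0.22 within the ob groups, beside 0.01 and -0.04 over all genes tested. Their median absolute log2 fold change was 0.12 in the db model, below the 0.18 of all genes, and 0.35 in the ob model, beside 0.27.

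**Figure D3:**
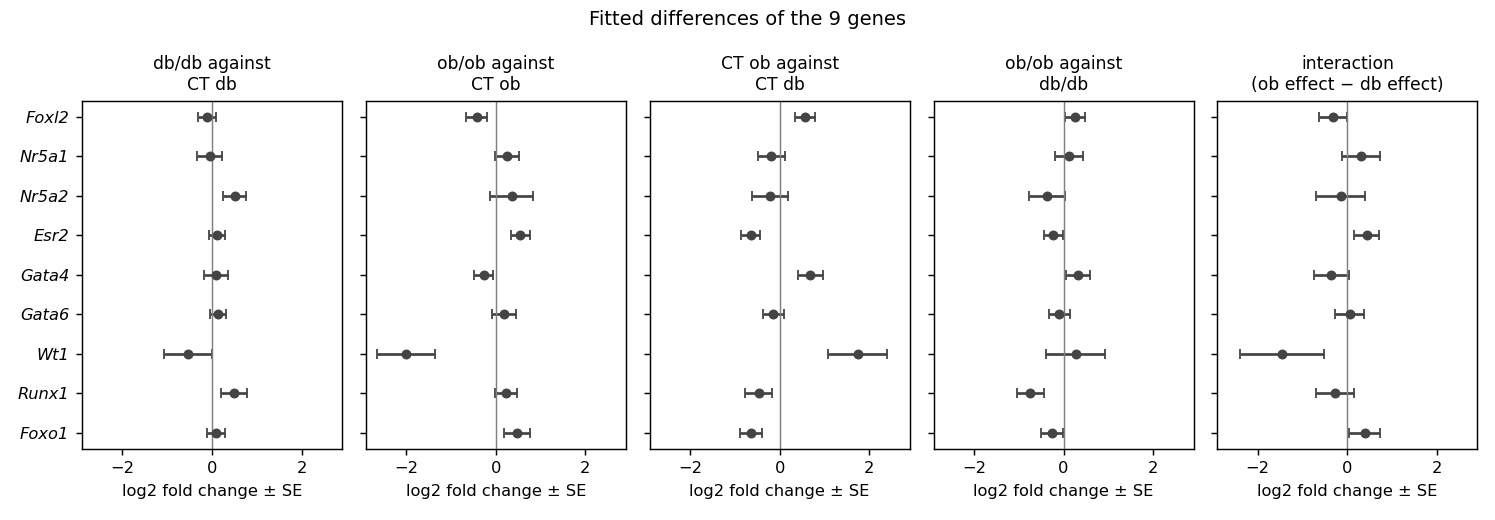
Log2 fold change and standard error of the 9 genes in the 5 comparisons, from edgeR fits of all genes. Values right of 0 are higher in the group named first. Wt1 has both the largest differences and the widest errors (-2.0 ± 0.65 in the ob model and 1.74 ± 0.65 between the controls), and the errors of most other points reach or lie close to 0 in the mutant comparisons.

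Foxl2, the keeper of ovarian identity, was at 102, 53.7, 81.3 and 68.7 CPM in CT db and at 82.7, 69.3, 74.9 and 58.7 CPM in db/db. In the ob model it was at 95.5, 102 and 144 CPM in CT ob and at 98.1, 65.9 and 90.3 CPM in ob/ob. All db/db values lay within the CT db range, and in the ob model the highest ob/ob library lay within the CT ob range. The mutant against control difference was -0.10 ± 0.20 (log2 fold change ± SE, adjusted p = 0.925) for db and -0.43 ± 0.24 (adjusted p = 0.676) for ob. CT ob was 1.49-fold above CT db (0.57 ± 0.22, adjusted p = 0.118), and without CT db library 37 the edgeR test called this difference (0.74, adjusted p = 0.0478). As single control libraries were left out it ran from 0.36 to 0.74, with adjusted p of edgeR's test from 0.0478 to 0.398. Over all genes those fits called 112 to 1199 genes. Foxl2os, a long noncoding RNA on the opposite strand that shares 23 exon bases with Foxl2, was expressed at 26.0 to 64.9 CPM and was not called in any comparison. The strand setting of the counting is not stated, so reads from the shared bases cannot be told apart.

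Genes of the alternative, testicular fate were scarce. Sry, Sox10 and Dmrt1 had 0 counts in every library, which allows up to 0.369 to 1.30 CPM, and Sox9, the target that FOXL2 is known to repress, had at most 2 counts in a library (0.562 CPM). Ptgds reached 233 CPM in db/db library 24 and had a median of 1.74 CPM over the 14 libraries. Dhh was the steadily expressed member of the 9 genes on that list, at 17.7 to 65.2 CPM, and with Ptgds 1 of the 2 whose counts passed the filter in the ob model. It was at 31.7 ± 5.89 CPM in db/db (SD, n = 4 each) and 27 ± 8.62 in CT db (adjusted p = 0.848 in edgeR's test).

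Runx1 is enriched in ovarian supporting cells, and its protein works with the partner CBFB. Its level was 112, 155, 70.3 and 128 CPM in CT db and 94.6, 192, 138 and 233 CPM in db/db. The ob groups were lower, with 81.5, 105 and 65.9 CPM in CT ob and 83.9, 87.0 and 124 CPM in ob/ob. The 2 db groups overlapped, and db/db libraries 53 and 81 were above every other library of the series. Differences within the models were 0.49 ± 0.28 (adjusted p = 0.709) for db and 0.22 ± 0.24 (adjusted p = 0.818) for ob. Without db/db library 24 the db difference was 0.68 ± 0.25 (unadjusted p = 0.0215, adjusted p = 0.346). ob/ob was 1.68-fold below db/db (log2 fold change -0.74 ± 0.30, unadjusted p = 0.0262, adjusted p = 0.501), and the controls stood in the same order (CT ob against CT db, -0.47 ± 0.30, adjusted p = 0.328). Of the other family members, Runx3 had 0 counts in every library and Runx2 0.62 to 13.2 CPM. Cbfb was expressed at 61.1 to 170.2 CPM in all libraries.

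Wt1 showed the largest difference of the set and the largest scatter. It was at 93.6, 77.9, 24.2 and 54.8 CPM in CT db and at 95, 10.8, 23.4 and 43.4 CPM in db/db. The CT ob libraries were at 265, 246 and 115 CPM, and the ob/ob libraries at 11.1, 55.0 and 90.3 CPM. Each CT ob library was above all 11 others, and the lowest values were shared by db/db library 53 and ob/ob library 41. The former rested on 25 counts, with an exact 95% interval of 6.96 to 15.9 CPM. Wt1 averaged 52.1 ± 39.7 CPM in ob/ob and 209 ± 81.8 in CT ob (SD, n = 3 each), a 4.01-fold lower level in the mutant (log2 fold change -2.0 ± 0.65, unadjusted p = 0.0142) that did not pass correction over 12425 genes (adjusted p = 0.561). With all genes of at least 1 count in the fit the same difference was -1.95 and was called (adjusted p = 9.2e-11), while DESeq2 gave an adjusted p of 0.379. The fit of all genes of at least 1 count called 359 genes in this comparison, against 0 in the main fit. Each ob/ob library was left out in turn, and each CT ob library, and the difference stayed between -2.66 and -1.53. Without CT ob library 65 and db/db library 24 it was -1.86 ± 0.73 (adjusted p = 0.675).

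In the db model the Wt1 difference was -0.54 ± 0.54 (adjusted p = 0.836). It was -1.26 ± 0.48 (unadjusted p = 0.0252, adjusted p = 0.361) without db/db library 24, where Wt1 was the highest of the group. That library also had the highest summed CPM of theca and stroma markers, most of it from Cyp17a1, and of surface epithelium markers. Whether such cells contributed the Wt1 counts was not tested. Wt1 was 3.33-fold higher in CT ob than in CT db (log2 fold change 1.74 ± 0.65, unadjusted p = 0.0172, adjusted p = 0.107). That comparison shares the CT ob libraries with the one inside the ob model, and model, strain and colony cannot be told apart in it. The mutants did not separate (ob/ob against db/db, 0.27 ± 0.67, adjusted p = 0.969). The interaction was -1.47 ± 0.94 (adjusted p = 0.687), so the Wt1 effects of the models were not shown to differ. With all genes of at least 1 count in the fit, both the interaction (-1.40, adjusted p = 0.0016) and the difference between the controls (1.72, adjusted p = 4.4e-13) were called. The same fit called 329 genes in all for the interaction and 1727 between the controls, against 0 and 834 in the main fit. Wt1os, a noncoding RNA that shares 246 exon bases with Wt1 on the other strand, had 0 to 63 counts, with the highest value (15.7 CPM) in CT ob library 65 and 0 in db/db library 53 and ob/ob library 41, the libraries in which Wt1 was lowest.

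Gata4 was at 171, 73.0, 189 and 139 CPM in CT db and at 200.3, 133, 161 and 113 CPM in db/db. In CT ob it was at 288, 189 and 211 CPM and in ob/ob at 180.1, 205 and 186 CPM. CT db library 51 was lowest by far, and CT ob library 60 was highest. The ob/ob values were close together (SD of 12.7 CPM, n = 3). Within the models the differences were 0.08 ± 0.27 (adjusted p = 0.955) and -0.27 ± 0.21 (adjusted p = 0.738). Between the controls CT ob was 1.61-fold higher (0.69 ± 0.27, unadjusted p = 0.0221, adjusted p = 0.121), with the lowest CT ob value just above the highest CT db value. With all genes of at least 1 count the call was made (0.66, adjusted p = 0.0353), in a fit that called 1727 genes in all, against 834 in the main fit.

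Gata6, the partner of Gata4 in steroidogenic promoters, was the steadiest of the 9 genes (ENSMUSG00000005836, chr18:11051565-11086995, plus strand). CT db stood at 55.6, 48.3, 87.6 and 75.8 CPM, and db/db at 72.9, 77.4, 69.2 and 74.6 CPM. The ob model had 80.7, 51.9 and 48.1 CPM in CT ob and 84.9, 68.7 and 52.9 CPM in ob/ob. All groups overlapped, and db/db showed the smallest scatter of any gene and group in the set (coefficient of variation 4.66%, n = 4). Differences were 0.14 ± 0.18 (adjusted p = 0.881) for db and 0.19 ± 0.26 (adjusted p = 0.865) for ob. Gata6os shares 1154 exon bases with Gata6 on the opposite strand and had 11 to 68 counts, and how many reads of this locus fell in the shared bases is not known. Gata5 had 0 counts in every library, Gata2 at most 1 and Gata3 at most 5, and Gata1 reached 2.49 CPM.

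The ratio of Gata6 to Gata4 within a library does not depend on library scaling. Per kilobase it was below 1 in 14 of 14 libraries, between 0.141 and 0.408. On the log2 scale of counts (pseudocount 0.5) the ratio averaged -1.05 ± 0.43 for CT db and -1.01 ± 0.39 for db/db (SD, n = 4 each) (exact permutation test, two-sided p = 0.943). In CT ob it was -1.94 ± 0.16 and in ob/ob -1.49 ± 0.37 (SD, n = 3 each), without overlap (two-sided exact permutation p = 0.1, the lowest possible with 3 against 3 libraries). All CT ob ratios were also below all CT db ratios, a difference of -0.90 (two-sided exact permutation p = 0.0571, the lowest possible with 3 against 4). After Benjamini-Hochberg adjustment over the 8 comparisons of this and the NR5A ratio, the exact permutation p for both was 0.4.

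Nr5a1, which encodes SF-1, was at 110.4, 77.9, 184 and 111 CPM in CT db and at 119, 114, 166 and 71.8 CPM in db/db. In the ob model it was at 87.6, 88.8 and 144 CPM in CT ob and at 154, 133 and 95.7 CPM in ob/ob. The groups overlapped throughout. Mutant against control differences were -0.05 ± 0.28 (adjusted p = 0.975) and 0.26 ± 0.27 (adjusted p = 0.809), and the sign of the former turned (0.01) when library totals were not scaled by TMM. Nr5a1os, which shares 136 exon bases with the gene on the opposite strand, had at most 12 counts.

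Nr5a2, which encodes LRH-1 and in the ovary is largely restricted to GCs and luteal cells, was at 176, 369.6, 211 and 236 CPM in CT db and at 229, 456, 396 and 337 CPM in db/db. The ob model gave 109, 149.6 and 384 CPM in CT ob and 398, 233 and 190.2 CPM in ob/ob. Of the db/db libraries, 3 were above 3 of the 4 CT db libraries, but CT db library 51 lay among them. The db difference was 0.51 ± 0.25 (1.42-fold, unadjusted p = 0.0667, adjusted p = 0.675), the smallest unadjusted p of the set in that model. Without db/db library 24 it was 0.67 ± 0.24 (unadjusted p = 0.0167, adjusted p = 0.322). CT ob library 68 was far above the other CT ob libraries, and the ob difference of 0.35 ± 0.48 (adjusted p = 0.858) ranged from -0.01 to 1.09 as single libraries were left out.

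Nr5a2 exceeded Nr5a1 per kilobase in 14 of 14 libraries, by 1.17- to 4.87-fold, and in 13 of 14 with canonical transcript lengths. The log2 ratio of their counts averaged 1.05 ± 0.88 for CT db and 1.61 ± 0.61 for db/db (SD, n = 4 each) (exact permutation test, two-sided p = 0.343). In CT ob it was 0.83 ± 0.56 and in ob/ob 1.06 ± 0.28 (SD, n = 3 each, exact permutation test, two-sided p = 0.5). The libraries of each group overlapped with those of its control. Of their corepressors, Nr0b1 (DAX-1) was expressed at 1.66 to 19.4 CPM and Nr0b2 (SHP) at 0.426 to 5.45 CPM.

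Esr2, which encodes oestrogen receptor beta, the main oestrogen receptor of GCs, was at 351, 533, 394 and 439 CPM in CT db and at 328, 548, 494 and 500 CPM in db/db. CT ob was at 295, 250.3 and 275 CPM, and ob/ob at 506, 340.0 and 355 CPM. All 3 CT ob libraries were below the 11 others. The db difference was 0.12 ± 0.19 (adjusted p = 0.907). Esr2 averaged 400.3 ± 91.7 CPM in ob/ob and 273 ± 22.2 in CT ob (SD, n = 3 each), 1.46-fold higher in the mutant (0.55 ± 0.21, unadjusted p = 0.0321, adjusted p = 0.604). The difference between the controls had the smallest adjusted p of any of the 9 genes in any comparison: CT ob was 1.57-fold below CT db (log2 fold change -0.65 ± 0.21, adjusted p = 0.0663). DESeq2 called it (adjusted p = 0.0197), as did edgeR without CT db library 37 (-0.74, adjusted p = 0.0451), and without CT ob library 65 and db/db library 24 it was -0.60 ± 0.21 (adjusted p = 0.101). As single control libraries were left out it ran from -0.74 to -0.53, with adjusted p of edgeR's test from 0.0451 to 0.175. The interaction for Esr2 was 0.43 ± 0.29 (adjusted p = 0.696). Esr1, the other oestrogen receptor, was at 39.6 to 122 CPM, and per kilobase Esr2 was 13.2- to 35.5-fold above it in all 14 libraries (6.04- to 16.2-fold with canonical transcript lengths).

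Foxo1, the member with the most counts, was at 797, 941, 1198 and 1369 CPM in CT db and at 879.9, 1297, 1178 and 1249.7 CPM in db/db. In CT ob it was at 443, 759.5 and 873 CPM and in ob/ob at 1184, 925 and 791 CPM. CT ob library 60 was lowest of all, and the groups of each model overlapped. Differences were 0.09 ± 0.19 (adjusted p = 0.938) for db and 0.48 ± 0.29 (adjusted p = 0.694) for ob. CT ob was 1.56-fold below CT db (log2 fold change -0.64 ± 0.25, unadjusted p = 0.0218, adjusted p = 0.121), a call with all genes of at least 1 count (-0.69, adjusted p = 0.0426). That last fit called 1727 genes in all, against 834 in the main fit. Foxo3 was at 41.9 to 70.1 CPM, and per kilobase Foxo1 was 7.82- to 26.4-fold above it in all libraries. In db/db Foxo3 averaged 66.6 ± 4.42 CPM against 51.4 ± 9.83 in CT db (SD, n = 4 each) (0.37 ± 0.16, unadjusted p = 0.0358, adjusted p = 0.632).

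Across the 14 libraries some pairs of the 9 genes were correlated. How often other pairs of genes are correlated in these libraries was not computed, so the count below has no background beside it. Of the 36 pairs, 12 had a Pearson correlation of log2 CPM that passed Benjamini-Hochberg adjustment at 0.05 (permutation test with 100000 draws, adjusted over 45 relations: the 36 pairs and the 9 genes with Inhba). Inhba was chosen with its values known, and 5 of its 9 relations passed. Their small p-values can lower the adjusted p of the pairs, which were not adjusted on their own. The values share their libraries, their scaling and the group differences described above, so each relation is also given within the models. A model still holds its mutant against control difference, so r over deviations from group means is given for the 12 pairs too. Wt1 was lower where Foxo1 was higher (r = -0.81, Spearman's rho = -0.85, adjusted permutation p = 0.0024), with r = -0.72 over the 8 libraries of the db model and -0.82 over the 6 of the ob model. The correlation was -0.83 without the 2 libraries farthest from the Wt1 median and -0.70 over deviations from group means. Esr2 was related to Wt1 in the same direction (r = -0.80, rho = -0.85, adjusted permutation p = 0.0067). The value of r was -0.57 and -0.93 within the models and -0.63 over deviations from group means. Without the 2 libraries farthest from the Esr2 median it was -0.70. Nr5a2 had r = -0.73 with Wt1 (rho = -0.73, adjusted permutation p = 0.0156), with -0.59 and -0.76 within the models and -0.64 over deviations from group means. Without the 2 libraries farthest from the Nr5a2 median r was -0.56.

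A second set of relations held Gata4, Foxl2 and Runx1. Gata4 was higher where Runx1 was lower (r = -0.74, rho = -0.86, adjusted permutation p = 0.013), with -0.66 among the db libraries and -0.40 among the ob libraries, and -0.74 without the 2 farthest libraries. Foxl2 and Gata4 had r = 0.70 (rho = 0.59, adjusted permutation p = 0.0213), with 0.85 among the db libraries and 0.04 among the ob libraries. Foxl2 was also opposite to Esr2 (r = -0.69, rho = -0.62, adjusted permutation p = 0.0213; -0.79 and -0.31 within the models) and to Runx1 (r = -0.68, rho = -0.63, adjusted permutation p = 0.0221; -0.65 and -0.45). Esr2 was opposite to Gata4 (r = -0.73, rho = -0.85, adjusted permutation p = 0.0128; -0.74 and -0.39). The positive pairs were Esr2 with Nr5a2 (0.70; 0.89 and 0.51 within the db and ob libraries), Esr2 with Foxo1 (0.71; 0.58 and 0.58), Esr2 with Runx1 (0.65; 0.76 and 0.066) and Nr5a2 with Foxo1 (0.74; 0.45 and 0.86). The adjusted p values above are those of Pearson's r, and 8 of the 12 pairs also passed by Spearman's rho. The exceptions were Foxl2 with Gata4 (adjusted permutation p = 0.069 for rho), Foxl2 with Esr2 and with Runx1 (0.0525 for each) and Esr2 with Runx1 (0.0506). Over deviations from group means r was -0.74 for Gata4 with Runx1, 0.54 for Foxl2 with Gata4 and -0.61 for Esr2 with Gata4. It was -0.36 for Foxl2 with Esr2 and -0.54 for Foxl2 with Runx1. On the same measure Esr2 had 0.64 with Nr5a2, 0.39 with Foxo1 and 0.45 with Runx1, and Nr5a2 had 0.69 with Foxo1. Gata6 was in none of the 12 pairs, and neither was Nr5a1.

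**Figure D4:**
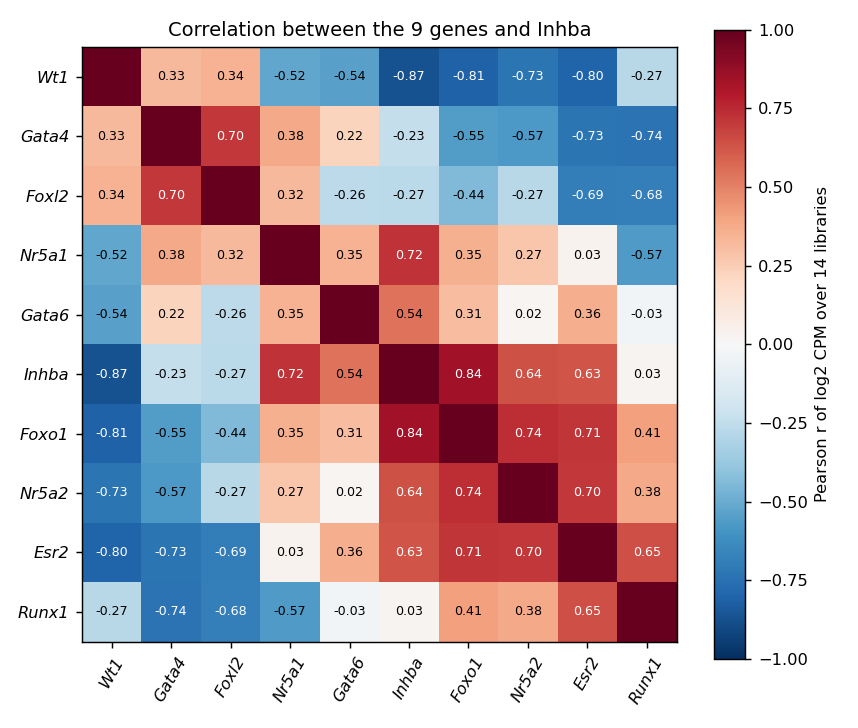
Pearson correlation of log2 CPM over 14 libraries for each pair of the 9 genes and for Inhba, coloured from blue (-1) to red (1). Wt1 is blue against Foxo1 (-0.81), Esr2 (-0.80), Nr5a2 (-0.73) and Inhba (-0.87), and Gata4 and Foxl2 form a red pair (0.70) that is blue against Esr2 and Runx1.

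Inhba, a gene of larger antral follicles whose promoter is printed above, was chosen with its values known, since it varied widely within every group. Its correlations are given as a description, without their p-values. Inhba was at 77.5, 167, 2545 and 749 CPM in CT db and at 219, 751, 2048 and 202 CPM in db/db. CT ob had 24, 52.9 and 173 CPM and ob/ob 1520.4, 261 and 60.5 CPM. Wt1 was lower where Inhba was higher (r = -0.87, rho = -0.85), with -0.74 in the db model, -0.95 in the ob model, -0.84 over deviations from group means and -0.88 without the 2 libraries farthest from the Inhba median. Foxo1 was higher where Inhba was higher (r = 0.84, rho = 0.80; 0.70 and 0.89 within the models), as was Nr5a1 (r = 0.72, rho = 0.77; 0.76 and 0.91). The values of r were nearest 0 for Foxl2 (-0.27), Gata4 (-0.23) and Runx1 (0.03).

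**Figure D5:**
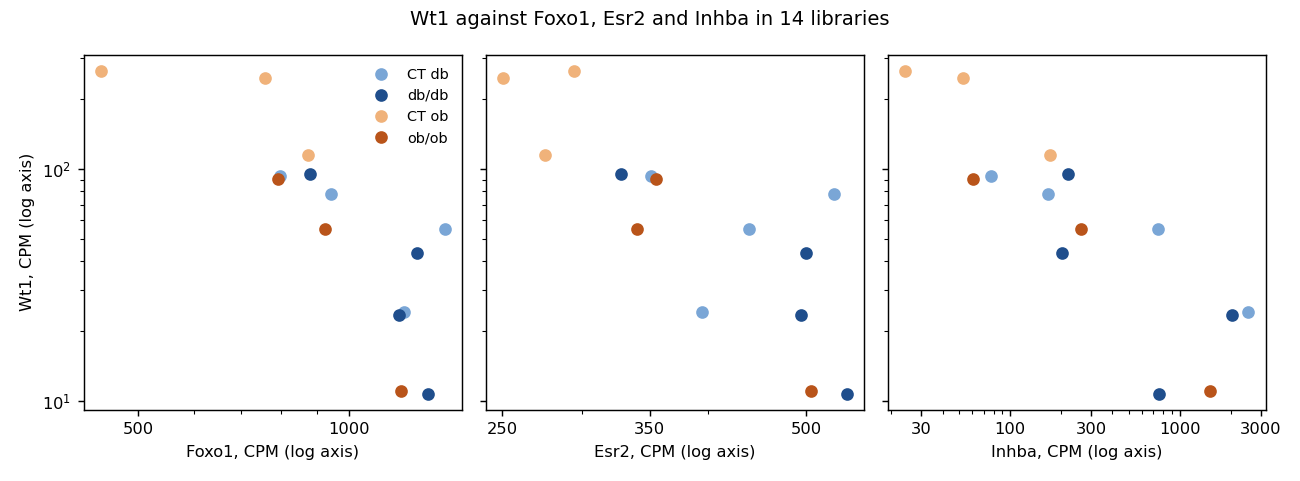
Wt1 CPM against the CPM of Foxo1, Esr2 and Inhba, all on log axes, with 1 point per library coloured by group. In each panel the 3 CT ob libraries lie highest on the Wt1 axis (115 to 265 CPM), and ob/ob library 41 (Wt1 at 11.1 CPM) and db/db library 53 (10.8 CPM) lowest.

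For each of the 9 genes the 3 genes with the most similar profile over the 14 libraries were taken from the 12586 genes tested, by Pearson correlation of log2 CPM, as a description. Foxl2 was closest to Gtf3c5 (0.90), Wnt4 (0.88) and Ap3d1 (0.87), and Runx1 to Lpgat1 (0.93), Med1 (0.93) and Bend4 (0.88). Wt1 was closest to Ephb6 (0.94), Tacc2 (0.94) and Ctnnal1 (0.92), Gata4 to Vasn (0.92), 2900026A02Rik (0.91) and Dcaf11 (0.89), and Gata6 to Thbs1 (0.89), Sgsh (0.89) and Ubxn6 (0.85). The nearest genes to Nr5a1 were Mapkbp1 (0.91), Capn5 (0.91) and Rassf2 (0.89), and to Nr5a2 Dnajc1 (0.94), Gm42939 (0.92) and Hnrnpa0 (0.92). Esr2 had the closest neighbours of all, Zbtb44 (0.97), Raph1 (0.96) and Sgo2a (0.95), and Foxo1 was closest to Ptprt (0.93), Clec1a (0.92) and Fabp5 (0.92). None of these 27 places was taken by another of the 9 factors.

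The genes that the factors are known to act on were compared through a list of 21 targets, all of which were tested. In db/db against CT db 0 of 21 were called by edgeR and 0 had an unadjusted p under 0.05. The smallest p there was that of Amh (anti-Müllerian hormone), at 96.9 ± 72.6 CPM in db/db and 235 ± 191 in CT db (SD, n = 4 each) (-1.29 ± 0.60, adjusted p = 0.668). In ob/ob against CT ob 0 of 21 were called, 4 had higher and 1 had lower values at an unadjusted p under 0.05 (beside 8.16% of all genes in either direction), and the median log2 fold change was 0.06, beside -0.04 over all genes. Cyp19a1 was at 44.8 ± 34.4 CPM in ob/ob and 14.9 ± 3.81 in CT ob (SD, n = 3 each) without overlap (1.59 ± 0.53, adjusted p = 0.561), and Star at 5.16 ± 2.61 and 17.2 ± 9.07 CPM (-1.74 ± 0.56, adjusted p = 0.561). Between the controls 1 of 21 was called, beside 6.63% of all genes: Fshr, the FSH receptor, was at 82.5 ± 42.4 CPM (SD, n = 3) in CT ob and 271 ± 66.9 (SD, n = 4) in CT db (-1.72 ± 0.35, adjusted p = 0.0163). It was the only gene on the 13 lists compared that edgeR called in the main setting. The call came from the fit of all 14 libraries, which called 834 genes between the controls. A fit of the control libraries alone called 3 genes, and whether Fshr was among them is not given here.

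Of 11 paralogs of the factors 3 were tested for db and 4 for ob, and 0 were called in any comparison. The smallest p in the ob model was that of Runx2 (-1.73 ± 0.77, adjusted p = 0.614). Cofactors of the 9 proteins and other gonadal transcription factors had 0 calls in each of the 5 comparisons. Of the 15 cofactors, 14 were tested in the db model with a median log2 fold change of 0.02, and 15 in the ob model with a median of -0.02. Cited1, a coactivator, had the smallest p on that list in both models: 8.41 ± 3.42 CPM (SD, n = 4) in db/db against 28.3 ± 17.9 in CT db (-1.73 ± 0.44, adjusted p = 0.398), and 8.30 ± 6.10 CPM (SD, n = 3) in ob/ob against 64.7 ± 74.9 in CT ob (-2.97 ± 0.94, adjusted p = 0.561), without overlap in either. Of 14 other gonadal transcription factors 10 were tested in each model, with median log2 fold changes of 0.10 and 0.21. Bnc2 had the smallest p among them in the db model (0.50 ± 0.24, adjusted p = 0.675) and Cebpb in the ob model (0.67 ± 0.30, adjusted p = 0.619). Pgr had up to 3 counts in a library. The 10 GC markers, all of them also among the 21 targets, had a median log2 fold change of -0.05 for db and 0.77 for ob. In the latter 4 were higher and 0 lower at an unadjusted p under 0.05, beside 8.16% of all genes. These are the same 4 genes as the higher targets above, and 0 of the 10 markers were called in either model.

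Levels of transcripts of other cell types are given beside these comparisons, and edgeR called 0 of them. Luteal markers had median log2 fold changes of -1.21 in the db and -1.71 in the ob model. Of the tested genes, 2 of 5 and 2 of 4 were lower at an unadjusted p under 0.05, beside 7.59% and 8.16% of all genes. The smallest p values were those of Ptgfr in db/db (0.0781 ± 0.156 CPM against 8.23 ± 7.32 in CT db, SD, n = 4, adjusted p = 0.221) and Akr1c18 in ob/ob (0.695 ± 0.791 CPM against 12.8 ± 15.5 in CT ob, SD, n = 3, adjusted p = 0.539). Oocyte transcripts summed to 2.81 to 252 CPM in CT db, 5.54 to 65.3 in db/db, 68.6 to 1084 in CT ob and 137 to 723 in ob/ob, and 9 of 9 tested oocyte markers had an unadjusted p under 0.05 with higher values in ob/ob than in db/db (beside 8.19% of all genes), of which 0 were called by edgeR. In CT ob the theca and stroma marker Pdgfra was at 14 ± 3.80 CPM (SD, n = 3) against 3.95 ± 0.973 in ob/ob (adjusted p = 0.539) and the endothelial marker Kdr at 9.36 ± 7.59 against 1.62 ± 0.778 (adjusted p = 0.539). The other marker lists had 0 calls by edgeR in the 5 comparisons. In the db model Zp2 of the oocyte list (-2.10 ± 1.04, adjusted p = 0.675), Cyp17a1 of the theca list (2.72 ± 1.10, adjusted p = 0.608) and Krt8 of the surface epithelium list (-0.13 ± 0.17, adjusted p = 0.885) had the smallest p of their lists. Cyp17a1 was at 256 CPM in db/db library 24, at 9.95 to 21.5 CPM in the other db/db libraries and at 0.426 to 30.8 CPM in CT db. In the ob model the smallest p of their lists were those of Zp3 (-0.92 ± 0.84, adjusted p = 0.784), Krt18 (-0.80 ± 0.55, adjusted p = 0.719) and, of the immune list, Cd68 (-0.13 ± 0.58, adjusted p = 0.962). Whether such cells had a part in the differences of Wt1, Esr2 or any other of the 9 genes between the ob groups was not tested.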

How the data were processed

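The authors pooled about 50 GCs of antral follicles per library, captured polyadenylated RNA on oligo-dT beads, made full-length cDNA by a Smart-seq2 type protocol and sequenced single reads of 75 bp. Per the study's methods, reads were trimmed with cutadapt, mapped to GRCm39 with STAR and counted per gene with featureCounts. The submitters' processing notes name Trim Galore 0.6.2, HISAT2 2.1.0 and GRCm38 instead, and this was not settled. The deposited values were raw counts per Ensembl identifier, without normalization, and no strand setting or treatment of reads with several matches is given in the sources used here. Columns were assigned to the 4 groups by the study's list of column names, and none was left out.

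Symbols, exon lengths and transcript starts came from the GENCODE annotation of GRCm39, which held 54749 of 55414 identifiers. edgeR 4.0.16 in R 4.3.3 was used for TMM scaling, filterByExpr and quasi-likelihood tests, with Benjamini-Hochberg adjustment over all genes tested: 11317 in the db model (4 against 4), 12425 in the ob model (3 against 3) and 12586 in the fit of 14 libraries, which served the comparisons of controls, of mutants and of the mutant effects. The standard error was the log2 fold change divided by the square root of the F statistic. Correlations used log2 CPM with a prior count of 2 and permutations in numpy 2.4.6, and ratios within a library used exact permutation tests in scipy 1.17.1, which double the smaller tail. The scripts were tested on simulated data. Alternatives were DESeq2 1.42.0, other scalings and filters, other sets of libraries and leaving out each library. Leaving out db/db library 24 and CT ob library 65 together was chosen after seeing the data.

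All 9 factors are named. From each list of related genes those called, those with the smallest p in each mutant comparison and, for cell types, those at 0 counts everywhere are named, with others given by range as background. The members and the lists were chosen with earlier results of these data known. DESeq2 results of the study itself were not used.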

Additional observations from a re-analysis of the deposited data

How the results depend on the processing

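No paired analysis was possible because replicate numbers in the labels are not carried by the table's columns. The 0 calls among the 9 genes held under every scaling, under robust fitting, with at least 10 counts in every library and without the 18S gene. The exceptions were the fit of every gene with at least 1 count, which called 1 of them (Wt1) in ob/ob against CT ob, 4 (Wt1, Esr2, Gata4 and Foxo1) in CT ob against CT db and 1 (Wt1) in the interaction, and DESeq2, which called 1 (Esr2) between the controls; leaving out single libraries gave 0 to 2 calls between the controls and 0 elsewhere. Over all genes the unfiltered fit called 359, 1727 and 329 genes in these comparisons. Its number of tested genes is not given here, so its calls among the 9 have no share of all genes beside them. The cause of the calls in the unfiltered fit was not tested. Counts over all genes depended far more on the setting. In db/db against CT db they were 1 in the main setting, 44 by DESeq2, 270 without a filter, 2 with library totals only, 0 with at least 10 counts in every library, 0 with all libraries in the fit and 1 to 4 without single libraries. In ob/ob against CT ob they were 0, then 86 by DESeq2, 359 without a filter and 1 with all libraries in the fit, and 0 without any single library. Between the controls 834 became 1563 by DESeq2, 1727 without a filter, 265 with library totals only, 3 in a fit of the controls alone and 112 to 1199 without single libraries (fewest without CT ob library 68). In ob/ob against db/db 2 became 72, 535, 1 with the stricter filter and 4 in a fit of the mutants alone. For the interaction 0 became 72, 329, 0 to 1 without single libraries and 1 without db/db library 24 and CT ob library 65. Directions that turned belonged to differences within their error. Nr5a1 in the db model was 0.012 with library totals only, and without db/db library 24 and CT ob library 65 Gata4 was -0.083 in the db model and Gata6 -0.053 in the interaction. As single libraries were left out, the db log2 fold changes ran from -0.24 to 0.068 (Foxl2), -0.26 to 0.22 (Nr5a1), -0.14 to 0.24 (Gata4) and -0.027 to 0.23 (Foxo1), and that of Nr5a2 in the ob model from -0.014 to 1.09. Between the controls they ran from -0.47 to 0.083 (Nr5a1), -0.96 to 0.095 (Nr5a2) and -0.42 to 0.014 (Gata6), between the mutants from -0.058 to 0.33 (Nr5a1), -0.28 to 0.062 (Gata6) and -0.38 to 0.98 (Wt1), and for the interaction from -0.53 to 0.59 (Nr5a2) and -0.13 to 0.33 (Gata6). The log2 ratio of Nr5a2 to Nr5a1 ran from -0.029 to 0.52 in the ob model and from -0.52 to 0.18 between the controls, and that of Gata6 to Gata4 from -0.15 to 0.19 in the db model.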
